A study of Homo sapiens with 24 samples.

Results

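SUZ12 was knocked down in SW-13 cells that were also depleted of BRM and exposed to IFNγ, and these cells were compared with BRM-depleted, IFNγ-exposed cells that received a control siRNA. The comparison took 3 siSUZ12 + siBRM arrays and 3 siCtrl + siBRM arrays by their sample labels, which was 6 of the 24 arrays in the study. All 47231 probes of each array were used. The SW-13 line was grown from a human adrenocortical carcinoma and is deficient in BRG1. Both groups received 75 nM siBRM, together with 50 nM siCtrl or 50 nM siSUZ12, in 2 transfection cycles, so the total dose of siRNA was 125 nM in each. Both were then exposed to IFNγ for 6 hours, at the 0.1 mg/ml given in the Methods. The other arrays came from the same cell line with siCtrl or siSUZ12, left untreated or without siBRM, and there were 3 arrays for each of the 8 groups.

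SUZ12 is a core subunit of Polycomb Repressive Complex 2 (PRC2), which methylates lysine 27 of histone H3 through its enzymatic subunit EZH2. The H3K27me3 mark is found at promoters of silent genes, many of them developmental regulators. BRM and BRG1 are the alternative ATPases of SWI/SNF, a complex that remodels nucleosomes and opposes PRC2 at many promoters. IFNγ acts through its cell surface receptor and induces the interferon stimulated genes (ISGs), which include antiviral effectors, chemokines and components of antigen presentation. The comparison asked which transcripts rise or fall with SUZ12 loss when BRM is depleted and IFNγ is present.

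Expression was read on Illumina Human-HT-12 BeadChips, on which the brightness of a probe reports the amount of its mRNA. The mean signal of the 6 arrays ran from 542 to 589, within the 532 to 635 of all 24, and between 15419 and 16269 probes per array were detected (detection p-value below 0.01). The background, read as the median signal of probes with a detection p-value from 0.4 to 0.6, was 89.2 to 101.7 in the 6 arrays. Across probes, the correlation of log2 signals was 0.994 to 0.995 within each group and 0.988 to 0.990 between the groups, and 6 of the 6 arrays correlated best with their own group. No table used here pairs the probe IDs with genes, so probes were counted, the knockdown of SUZ12 and BRM and the markers of the cell type were not analysed here, and several probes may report 1 gene. Background was not subtracted, so the folds of dim probes are understated.

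At a 2-fold limit, SUZ12 knockdown mainly raised transcripts. Of the 47231 probes, 138 (0.292%) were ≥ 2-fold higher in siSUZ12 + siBRM than in siCtrl + siBRM cells with IFNγ, and 8 (0.0169%) were ≥ 2-fold lower (limma, Benjamini-Hochberg adjusted p-value below 0.05). Raised probes made up 94.5% of the called ones. The adjusted p-value alone, without a fold limit, called 2227 probes (4.72%) as raised and 1581 (3.35%) as lowered. Raised probes then made up 58.5%, against 51.5% with quantile normalization and 52.5% when arrays were scaled to a common median. In these bulk samples, a change of the same size in each cell and a larger change in fewer cells cannot be told apart.

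The median log2 difference of the 138 raised probes was 1.38, beside 0.02 over all probes, and the middle 50% of them lay between 1.15 and 1.76. At least a 4-fold rise was measured at 25 of them and at least an 8-fold rise at 5. Their median signal was 140, 137 and 137 in the 3 siCtrl + siBRM arrays and 461, 461 and 460 in the 3 siSUZ12 + siBRM arrays. The 3 siSUZ12 arrays lay above the 3 siCtrl arrays at 138 of the 138, as they did at 11.3% of all probes. The 138 were called on these same arrays, so this order follows largely from the call. Taken by replicate number, 114 of the 138 were ≥ 2-fold higher in each of the 3 pairs of arrays. The raised probe nearest to the threshold had a log2 difference of 1.01, and the nearest probe below it 0.99.

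**Figure D1:**
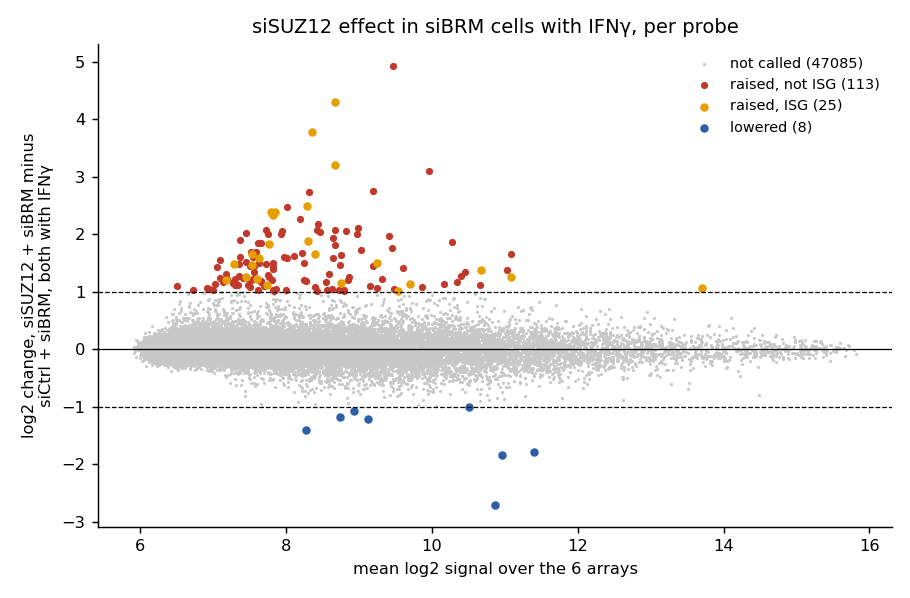
Log2 difference between siSUZ12 + siBRM and siCtrl + siBRM cells with IFNγ (vertical axis) against the mean log2 signal over the 6 arrays (horizontal axis), with 1 point per probe and dashed lines at 2-fold. The 138 raised probes (113 in red, 25 ISG probes in orange) reach a log2 difference of 4.93, and the 8 lowered probes (blue) reach -2.71.

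Raised probes came from both sides of the detection limit. No siCtrl + siBRM array gave a detected signal at 57 of the 138, while the same held at 63.7% of all probes. At 56 of the 57 all 3 siSUZ12 + siBRM arrays did detect the probe, as at 0.498% of all probes, a share that a ≥ 2-fold rise from background itself favours. The median signal of these 56 was 103.9 in the control group, which is close to the background, and 281 after siSUZ12. Their median log2 difference was 1.46, with a range of 1.02 to 4.30. Another 65 raised probes were detected in all 3 control arrays, as were 14507 of all 47231 probes. These 65 had a median signal of 265 in the control group and 760 after siSUZ12, and their median log2 difference was 1.30. The probes were also divided into 4 equal parts by their mean signal over the arrays of both groups. The dimmest 2 parts held 1 raised probe each, the next 40 and the brightest 96. This mean includes the siSUZ12 + siBRM arrays, so a rise itself moves a probe towards a brighter part. How bright the raised probes were in control cells is therefore not read from these parts.

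The largest rise was at the probe ILMN_1764690. Its signal was 130.7, 123.3 and 132.6 in the siCtrl + siBRM arrays, of which 1 was detected, and 3756, 3847 and 4176 in the siSUZ12 + siBRM arrays. The groups were far apart, with means of 128.9 ± 4.92 (SD, n = 3) and 3927 ± 221 (SD, n = 3). The log2 difference was 4.93 (SE 0.08, adjusted p-value 5.89e-31, limma). In untreated siBRM cells, without IFNγ, its log2 difference was 4.85.

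The next largest rise was at ILMN_3239965, an ISG probe. Its signal was 95.6, 96.7 and 85.1 in the siCtrl + siBRM arrays with IFNγ, all undetected, and 2099, 1792 and 1585 in the siSUZ12 + siBRM arrays. The log2 difference was 4.30 (SE 0.09, adjusted p-value 1.4e-27, limma). In untreated siBRM cells the same probe had a signal of 92.3, 90.0 and 88.4 with siCtrl and of 89.4, 96.6 and 97.5 with siSUZ12, so no array without IFNγ detected it. High signal was seen in the siSUZ12 arrays with IFNγ, and the 3 control arrays of the same exposure overlapped with the untreated arrays in level.

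**Figure D2:**
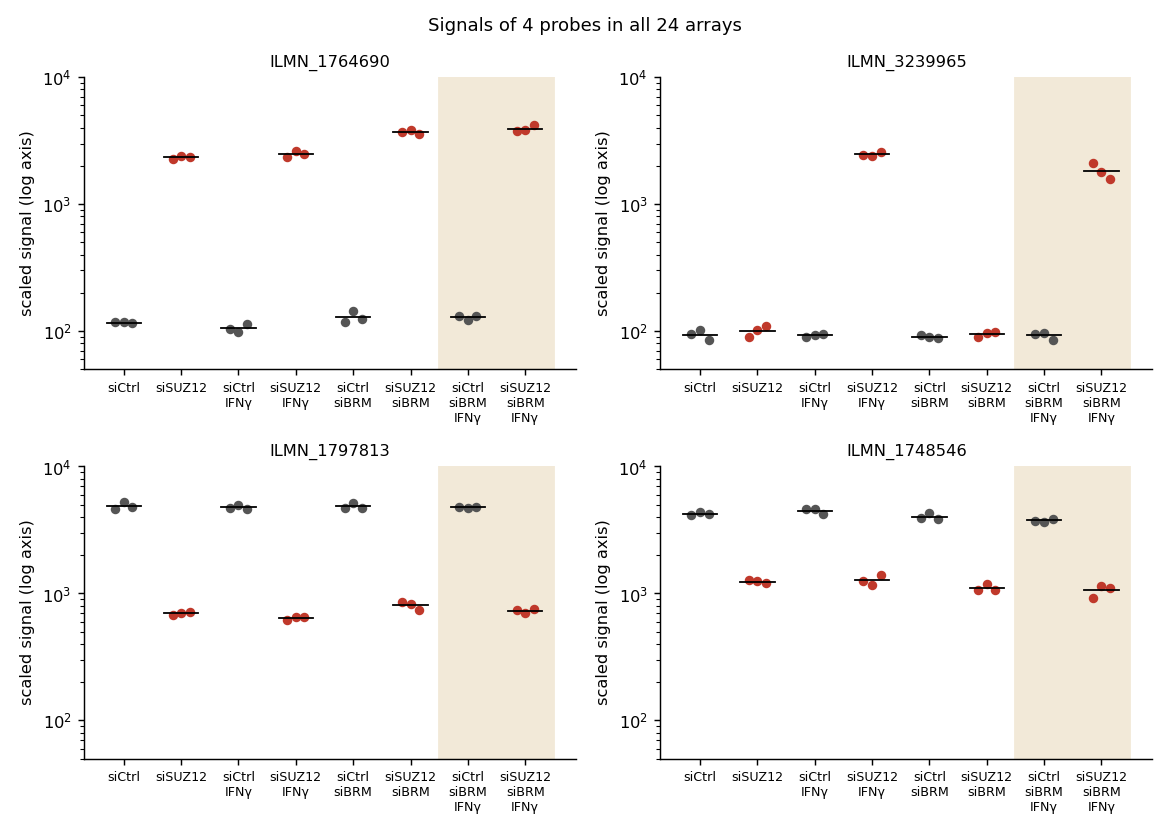
Scaled signal (log axis) of the 2 probes with the largest rise and the 2 with the largest fall, in the 3 arrays of each of the 8 groups, with siCtrl in grey, siSUZ12 in red, group means as bars and the compared groups shaded. ILMN_1764690 is high in every siSUZ12 group (3756 to 4176 in the shaded one), ILMN_3239965 only in the siSUZ12 groups with IFNγ (1585 to 2099 in the shaded one), and the lower 2 probes are low in every siSUZ12 group.

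The ≥ 2-fold falls were few, and after background correction with neqc 42 probes fell and 274 rose ≥ 2-fold. The 8 lowered probes were detected in all 6 arrays and lay in the brightest part by mean signal. Without background subtraction a probe near the background could not fall ≥ 2-fold, so that they were detected follows from the scale. At 8.33% of all probes the 3 siSUZ12 arrays lay below the 3 siCtrl arrays. They did so at 8 of the 8, which follows largely from the call of these 8 on the same arrays. Their median signal was 1408, 1465 and 1486 in the siCtrl + siBRM arrays and 552, 533 and 564 in the siSUZ12 + siBRM arrays. Their log2 differences reached -2.71 and the median was -1.31, and 6 of the 8 were ≥ 2-fold lower in each pair of arrays. The nearest probe on the other side of the threshold was at -0.99. The largest fall was at ILMN_1797813, with signals of 4833, 4742 and 4774 in the control arrays and 736, 707 and 752 after siSUZ12. Its log2 difference was -2.71 (SE 0.07, adjusted p-value 3.52e-24, limma). ILMN_1748546 followed, with 3716, 3679 and 3886 in the control arrays and 913, 1154 and 1108 after siSUZ12. Its log2 difference was -1.84 (SE 0.08, adjusted p-value 5.96e-18, limma). Both probes were as low after siSUZ12 in untreated siBRM cells, with log2 differences of -2.59 and -1.86.

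To see which changes depended on IFNγ, the same comparison was made in untreated siBRM cells, on 6 arrays that are not among those above. There siSUZ12 raised 114 probes (0.241%) and lowered 8 (0.0169%) ≥ 2-fold (limma, Benjamini-Hochberg adjusted p-value below 0.05). Of the raised probes, 94 were called in both states, which was 68.1% of the 138 with IFNγ and 82.5% of the 114 without. At the adjusted p-value alone, 125 of the 138 were raised in untreated cells too, where 5.04% of all probes were. Of the 8 lowered probes, 5 were called in untreated cells, 8 of the 8 were lowered there at the adjusted p-value alone (2.98% of all probes), and their log2 differences ran from -0.81 to -2.59. Most of the probes that changed with SUZ12 loss in BRM-depleted cells were therefore called with and without the cytokine.

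The 94 probes called in both states had a median log2 difference of 1.43 with IFNγ and 1.44 without it. Probe by probe, the change of the difference by IFNγ ran from -0.41 to 0.95. At the adjusted p-value of the interaction alone, 2 of the 94 were higher with IFNγ, beside 0.0974% of all probes, and 0 lower, beside 0.0191%. Being called in both states was the condition for entering this group. Their median signal was 438, 440 and 432 in the siSUZ12 + siBRM arrays with IFNγ and 403, 420 and 413 in the untreated ones. In the siCtrl + siBRM arrays it was 142, 143 and 142 with IFNγ and 140, 150 and 145 without. The remaining 44 raised probes, called with IFNγ alone, had a median log2 difference of 1.26 with IFNγ and 0.62 without. In untreated cells 31 of them were raised at the adjusted p-value alone, beside 5.04% of all probes. Being called in 1 state and not in the other does not show that the 2 states differ, so the difference itself was tested.

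The siSUZ12 difference was ≥ 2-fold higher with IFNγ than without at 18 probes (0.0381%) and ≥ 2-fold lower at 1 (0.00212%) (limma interaction contrast, Benjamini-Hochberg adjusted p-value below 0.05). Without a fold limit there were 46 (0.0974%) and 9 (0.0191%). The 18 probes had a median log2 siSUZ12 difference of 1.74 with IFNγ and 0.15 in untreated cells, a gap for which they were chosen. Their median signal over the arrays was 115, 103 and 107 in siCtrl + siBRM cells with IFNγ and 462, 432 and 468 in siSUZ12 + siBRM cells with IFNγ. In untreated cells it was 88.3, 91.5 and 88.8 with siCtrl + siBRM and 101.7, 100.9 and 105.0 with siSUZ12 + siBRM. Each of the 18 was detected in the 3 siSUZ12 + siBRM arrays with IFNγ. The siCtrl + siBRM arrays with IFNγ detected 4, 5 and 5 of them, and the untreated siSUZ12 + siBRM arrays 3, 4 and 3. In untreated cells 6 of the 18 were raised by siSUZ12 at the adjusted p-value alone, beside 5.04% of all probes. The log2 differences of these 6 reached 0.72.

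The change of the siSUZ12 difference by IFNγ was 4.23 on the log2 scale at ILMN_3239965 (SE 0.13, adjusted p-value 3.55e-22, limma). The second of the 18 had a mean signal of 88.6 in siCtrl + siBRM and 1215 in siSUZ12 + siBRM cells with IFNγ, against 78.9 and 91.4 in untreated cells. The third went from 134 to 1240 with IFNγ and from 99.0 to 107.7 without it. The smallest change among the 18 was 1.02. The 1 probe with the opposite pattern was bright in each of the 4 groups: its mean signal was 498 in siCtrl + siBRM and 1165 in siSUZ12 + siBRM cells without IFNγ, and 2300 and 2402 with it. Its siSUZ12 log2 difference was 1.23 in untreated cells and 0.06 with IFNγ.

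**Figure D3:**
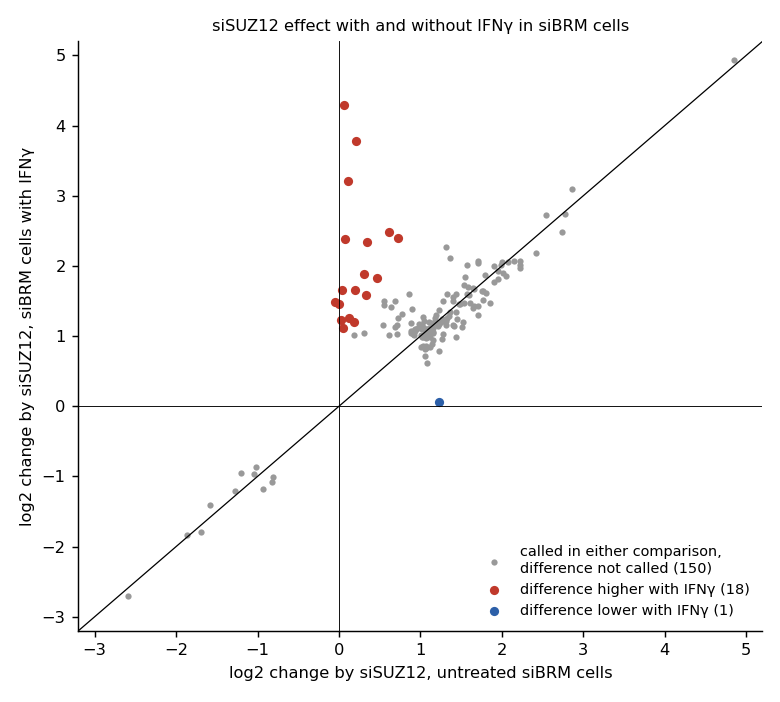
Log2 change by siSUZ12 in siBRM cells with IFNγ (vertical axis) against the same in untreated siBRM cells (horizontal axis) for probes called in either comparison, with the line of equality. The 18 probes with a higher difference with IFNγ (red) lie between -0.05 and 0.72 on the horizontal axis and between 1.11 and 4.30 on the vertical axis, the 1 with a lower difference is blue, and the other 150 are grey.

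ISG probes were defined on arrays outside this comparison, as the 130 probes (0.275%) that IFNγ raised ≥ 2-fold in siCtrl or in siSUZ12 cells without siBRM (limma, Benjamini-Hochberg adjusted p-value below 0.05). IFNγ induced 58 of them ≥ 2-fold in siCtrl cells, a choice that did not use siSUZ12. The other 72 entered the list through siSUZ12 cells, the group in which they are high, so a rise after siSUZ12 is favoured among them, although on other arrays. Of the 58, siSUZ12 raised 4 ≥ 2-fold in siBRM cells with IFNγ, which was 6.90% of them beside 0.292% of all probes. At the adjusted p-value alone 46 of the 58 were raised, beside 4.72% of all probes, and 2 lowered, beside 3.35%. The shares of all probes include many undetected ones. A fit limited to the 18229 detected in at least 3 arrays called 2939 as raised and 2285 as lowered at the adjusted p-value alone. The median log2 difference of the 58 was 0.39, and all 3 siCtrl + siBRM arrays with IFNγ detected each of them. Their median signal was 1067, 981 and 1027 in siCtrl + siBRM and 1504, 1545 and 1395 in siSUZ12 + siBRM cells with IFNγ, so the 2 sets of arrays did not overlap.

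Of the 72 other ISG probes, siSUZ12 raised 21 ≥ 2-fold, with a median log2 difference of 0.48, and their way into the list means that nothing is read from this count. Their median signal was 242, 245 and 259 in siCtrl + siBRM and 542, 509 and 526 in siSUZ12 + siBRM cells with IFNγ. Many of them also responded in siCtrl cells and missed the 2-fold threshold there: 44 of the 72 had a log2 induction of 0.5 to 1 in siCtrl cells without siBRM. Over the whole list of 130, limma called 25 as raised and 0 as lowered ≥ 2-fold, beside 0.292% and 0.0169% of all probes. The 25 include the 21 above, and with so small a share of lowered probes nothing is read from the 0. A list of 218 ISG probes formed in the same way after neqc held 45 raised and 0 lowered ones. Of all 47231 probes, neqc called 274 as raised and 42 as lowered. At an unadjusted p-value below 0.05, 112 of the 130 were higher, beside 9.9% of all probes, and 3 lower, beside 7.07%. The 2 ISG probes lowered at the adjusted p-value had log2 differences of -0.45 and -0.48.

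The median signal of the 130 ISG probes was 539, 499 and 531 in siCtrl + siBRM and 781, 769 and 795 in siSUZ12 + siBRM cells with IFNγ. In untreated siBRM cells it was 192, 193 and 190 with siCtrl and 233, 229 and 228 with siSUZ12. Over these 130 the siSUZ12 arrays lay above the control arrays in both states, by more with IFNγ. The 72 chosen through siSUZ12 cells with IFNγ favour this gap. Among the 58 induced in siCtrl cells the siSUZ12 log2 difference changed by a median of 0.16 with IFNγ, beside -0.02 over all probes. Of these 58, 0 had a ≥ 2-fold higher difference with IFNγ and 1 a lower one. The 18 probes with a higher siSUZ12 difference with IFNγ were all ISG probes, as was the 1 with a lower difference. All 18 were among the 72, an overlap that the choice of these 72 favours, and the 1 was among the 58. Among the 113 raised probes that are not ISG probes, the median log2 difference was 1.31 with IFNγ and 1.33 without, and 94 of them were called in both states. None of these 113 had a ≥ 2-fold difference between the states in limma, beside 0.0381% of all probes higher with IFNγ and 0.00212% lower. Probes that IFNγ raised ≥ 2-fold without siBRM were left out of the 113, which itself favours a similar difference in both states. At the adjusted p-value alone 7 of the 113 were higher with IFNγ, beside 0.0974% of all probes, and 0 lower, beside 0.0191%. The call of the 113 with IFNγ favours the higher direction. At an unadjusted p-value below 0.05, 18 of them were higher with IFNγ, beside 1.69% of all probes, and 8 lower, beside 3.19%. After neqc 3 of them were called, beside 0.0805% of all probes.

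By induction in siCtrl cells without siBRM, 28 of the ISG probes were changed by under 0.5 on the log2 scale, 44 by 0.5 to 1, 38 by 1 to 2 and 20 by 2 or more. The median siSUZ12 log2 difference in siBRM cells with IFNγ was 0.37 in the group of 1 to 2, with 3 probes raised ≥ 2-fold, and 0.40 in the group of 2 or more, with 1. In the group of 0.5 to 1 it was 0.35, with 4 raised. In the group under 0.5 it was 1.36, with 17 raised, but a probe could enter that group only through a ≥ 2-fold induction in siSUZ12 cells. The last 2 medians are therefore given as a description, and no order of the groups is read from them.

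**Figure D4:**
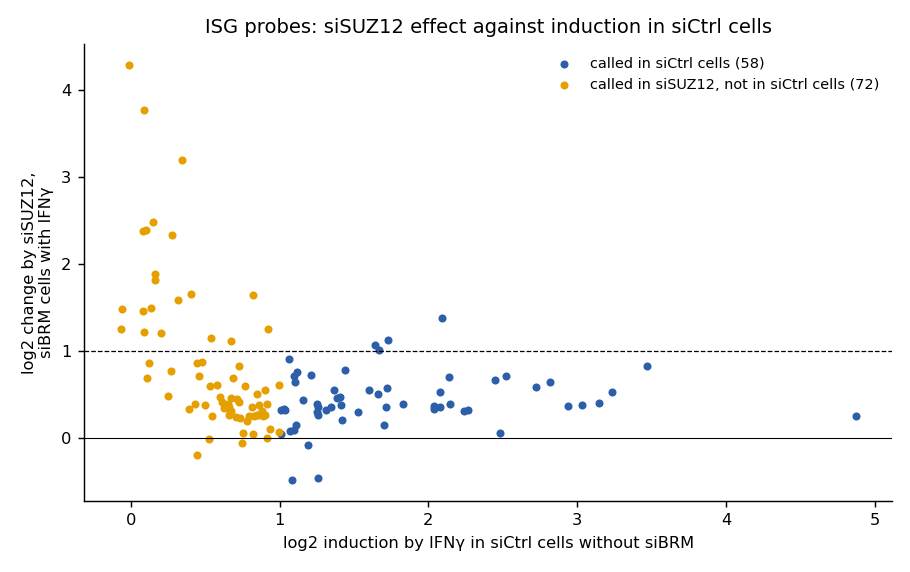
Log2 change by siSUZ12 in siBRM cells with IFNγ (vertical axis) against log2 induction by IFNγ in siCtrl cells without siBRM (horizontal axis) for the 130 ISG probes, with a dashed line at 2-fold. Of the 58 probes called as induced in siCtrl cells (blue) 4 are called above the dashed line, and of the 72 called in siSUZ12 and not in siCtrl cells (orange) 21 are, with values up to 4.30, a group chosen through siSUZ12 cells.

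The induction by IFNγ was also read within siBRM cells, on arrays that include the 6 compared above, so the values are given side by side. IFNγ raised 75 probes (0.159%) ≥ 2-fold in siCtrl + siBRM cells and 140 (0.296%) in siSUZ12 + siBRM cells (limma, Benjamini-Hochberg adjusted p-value below 0.05). Over the 130 ISG probes the median log2 induction was 1.12 with siCtrl + siBRM and 1.54 with siSUZ12 + siBRM. For the 58 induced in siCtrl cells it was 1.93 and 1.96, and for the other 72 it was 0.80 and 1.23. Over the 18 probes it was 0.27 and 1.88, and a gap between these inductions is what the 18 were chosen for.

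The comparison was then set beside siSUZ12 against siCtrl with IFNγ in cells without siBRM, on 6 further arrays with 50 nM siRNA. A group with 125 nM siRNA and no siBRM was not part of the design used here, so BRM loss and the higher dose cannot be told apart in this step. Without siBRM, siSUZ12 raised 227 probes (0.481%) and lowered 95 (0.201%) ≥ 2-fold (limma, Benjamini-Hochberg adjusted p-value below 0.05). Of the 138 raised in siBRM cells, 124 were also called without siBRM, which was 89.9% of the 138 and 54.6% of the 227. At the adjusted p-value alone 138 of the 138 were raised there, beside 7.28% of all probes. Of the 8 lowered, 7 were called without siBRM, and 8 of the 8 at the adjusted p-value alone, beside 6.95% of all probes.

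The siSUZ12 difference was larger with siBRM at 44 of the 138 raised probes and smaller at the rest. It was larger at 27503 of all 47231 probes. The median difference over the 138 was 1.38 on the log2 scale in siBRM cells and 1.63 in cells without siBRM. At the adjusted p-value of the interaction alone, 30 of them had a smaller difference with siBRM, beside 0.599% of all probes, and 6 a larger one, beside 0.697%. None of the 138 reached a ≥ 2-fold change of the difference in limma. Of all probes 0.0254% did so upwards and 0.0148% downwards, so nothing is read from this absence. At an unadjusted p-value below 0.05, 19 of the 138 were higher with siBRM, beside 6.02% of all probes, and 55 lower, beside 3.85%. After neqc 9 were called, beside 0.214% of all probes. The probe ILMN_1764690 had a log2 difference of 4.93 with siBRM and 4.56 without it, and the interaction had an adjusted p-value of 0.123 (limma). ILMN_3239965 had 4.30 and 4.74, with an adjusted p-value of 0.0862. At the 18 probes with a higher siSUZ12 difference with IFNγ the medians were 1.74 with siBRM and 2.11 without. In cells without siBRM the siSUZ12 difference was larger with IFNγ than without at 18 of the 18, by 0.51 to 4.64 on the log2 scale, and 18 of the 18 passed the adjusted p-value alone, beside 0.182% of all probes.

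Of the 138, 14 were not called without siBRM. Their log2 differences ran from 1.01 to 1.46 with siBRM and lay below the threshold, down to 0.31, in cells without siBRM. The interaction was higher with siBRM at the adjusted p-value at 4 of the 14, beside 0.697% of all probes, and the choice of probes called with siBRM and not without it favours that direction. The clearest had a siSUZ12 log2 difference of 1.04 with siBRM and 0.31 without (interaction adjusted p-value 0.000257, limma). The 103 probes raised without siBRM and not called with it had median log2 differences of 1.11 without siBRM and 0.72 in siBRM cells. At the adjusted p-value alone 101 of them were raised in siBRM cells, beside 4.72% of all probes.

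Most probes that siSUZ12 lowered without siBRM were not called with it. Of the 95 lowered without siBRM, 88 were not called in siBRM cells. At the adjusted p-value alone, however, 89 of the 95 were lowered there, beside 3.35% of all probes. Their median signal with IFNγ was 1241, 1221 and 1262 with siCtrl, 897, 886 and 901 with siCtrl + siBRM, 526, 519 and 514 with siSUZ12, and 586, 585 and 566 with siSUZ12 + siBRM. The siSUZ12 arrays were low in both backgrounds, while the control arrays were lower with siBRM than without it. Over the 95 the siSUZ12 difference had a median of -1.25 on the log2 scale in cells without siBRM and of -0.57 in siBRM cells. The interaction was higher with siBRM at 75 of them at the adjusted p-value alone, beside 0.697% of all probes. These 95 were chosen for a fall without siBRM, and the part of that choice in the smaller difference was not tested.

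The interaction with siBRM passed a ≥ 2-fold limit at 19 probes, with the siSUZ12 difference higher with siBRM at 12 (0.0254%) and lower at 7 (0.0148%) (limma, Benjamini-Hochberg adjusted p-value below 0.05). After neqc these counts were 48 and 53, so neither their size nor which was larger held under background correction. None of the 19 was among the 138 raised or the 8 lowered probes. Those were 0.292% and 0.0169% of all probes, so nothing is read from this absence. At the 12, the median log2 siSUZ12 difference was -1.45 in cells without siBRM and -0.18 in siBRM cells. Their median signal with IFNγ was 1526, 1378 and 1465 with siCtrl, 519, 519 and 498 with siCtrl + siBRM, 616, 560 and 585 with siSUZ12, and 449, 447 and 424 with siSUZ12 + siBRM. The control cells were lower with siBRM than without it at 12 of the 12, with log2 changes down to -2.55, and 11 passed the adjusted p-value of that step, beside 1.72% of all probes. The siSUZ12 cells were higher with siBRM at 5 of the 12 at the adjusted p-value, beside 1.68% of all probes, and lower at 3, beside 1.71%. The change of the difference that chose the 12 is made up of these 2 steps. Lower control cells or higher siSUZ12 cells are therefore favoured among them. The probe with the largest change of the difference had mean signals of 2447 with siCtrl, 417 with siCtrl + siBRM, 618 with siSUZ12 and 365 with siSUZ12 + siBRM, all with IFNγ.

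At the 7 probes in the other direction the siSUZ12 difference had medians of 1.60 on the log2 scale in cells without siBRM and 0.53 in siBRM cells. The choice of these 7 favours higher control cells or lower siSUZ12 cells with siBRM. At 4 of the 7 the control cells were higher with siBRM at the adjusted p-value, beside 1.41% of all probes, as at a probe with mean signals of 1562 with siCtrl, 3489 with siCtrl + siBRM, 4731 with siSUZ12 and 4208 with siSUZ12 + siBRM. At the other 3 the siSUZ12 cells were lower with siBRM at the adjusted p-value, with log2 changes of -0.91 to -1.33. Of these, 1 was an ISG probe, with mean signals of 187 with siCtrl, 165 with siCtrl + siBRM, 682 with siSUZ12 and 272 with siSUZ12 + siBRM. It was the only ISG probe among the 19. Which of these probes report the same gene was not analysed here.

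**Figure D5:**
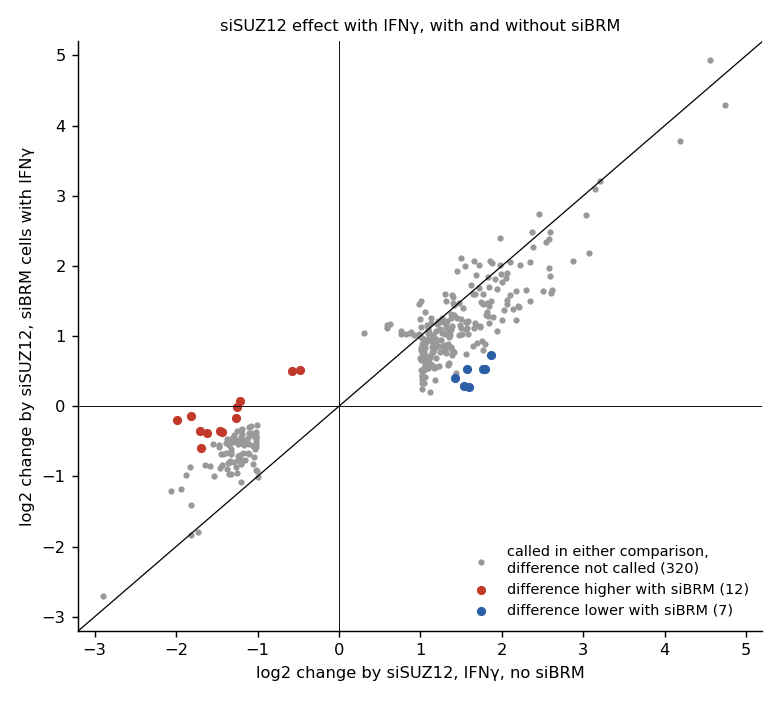
Log2 change by siSUZ12 with IFNγ in siBRM cells (vertical axis) against the same in cells without siBRM (horizontal axis) for probes called in either comparison or in their difference, with the line of equality. The 12 probes with a higher difference with siBRM (red) lie between -0.60 and 0.52 on the vertical axis, the 7 with a lower difference (blue) between 0.27 and 0.72, and the other 320 are grey.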

How the data were processed

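Gene expression was measured in 24 arrays of SW-13 cells, in 8 groups of 3, which the Methods call biological replicates. The authors deposited the signal intensity of 47231 probes per array without normalization, each with a detection p-value from the authors' software. The Methods name average normalization by BeadStudio without a formula. Here every array was multiplied so that its mean equalled the mean over arrays, and the log2 of the result entered 1 fit of group means by limma 3.58.1 (R 4.3.3) over the 24 arrays, with 16 residual degrees of freedom. Probes were called at ≥ 2-fold and a Benjamini-Hochberg adjusted p-value under 0.05 over all probes. Effects were compared by interaction contrasts. With 3 arrays against 3, no permutation p-value under 0.10 is possible, and the number of arrays limits the precision. The groups compared, the ISG list and the tests were chosen with earlier results of these data known. The named probes are the 2 largest called rises and falls whose arrays do not overlap. No table used here pairs probe IDs with genes (0 matched), so gene lists, cell type markers, sequences and SUZ12 and BRM levels were not analysed here. The fit was tested on simulated data with known changes before use. Alternatives were quantile normalization, scaling to array medians, neqc, detected probes only, eBayes with trend and robust settings, a fit of the 6 arrays, a replicate block, other thresholds and leaving out arrays. Figures were drawn with matplotlib 3.10.9.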

Additional observations from a re-analysis of the deposited data

Results flagged for a closer look

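In siBRM cells the siSUZ12 difference was ≥ 2-fold higher with IFNγ than without at 18 probes and lower at 1, by the limma interaction test with Benjamini-Hochberg adjustment. The largest of these was 4.23 on the log2 scale at ILMN_3239965, which was at background in untreated siSUZ12 + siBRM cells and in siCtrl + siBRM cells with IFNγ. With IFNγ, the siSUZ12 difference was ≥ 2-fold higher with siBRM than without at 12 probes and lower at 7, by the same test. The dose of siRNA differed between cells with and without siBRM, and its part in the last 2 counts cannot be told apart from BRM loss.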

How the results depend on the processing

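The counts are of probes that siSUZ12 raised and lowered with IFNγ and siBRM (138 and 8), raised and lowered in untreated siBRM cells, more raised and less raised with IFNγ than without, and more raised and less raised with siBRM than without, then ISG probes raised. With neqc, which subtracts background and adds an offset of 16, they became 274, 42, 260, 35, 33, 5, 48, 53 and 45. Its list of ISG probes was also its own, with 218 probes. The fit with neqc called 138 of the 138 raised and 8 of the 8 lowered probes, and raised probes were 86.7% of its calls. With the adjusted p-value alone the first 8 counts became 2227, 1581, 2379, 1407, 46, 9, 329 and 283, and at 1.5-fold the first 2 became 410 and 153, since these thresholds admit smaller changes. Leaving out a replicate number or 1 of the 6 arrays gave 129 to 143 raised and 8 to 10 lowered probes, and leaving out a replicate number gave 110 to 121, 8 to 9, 18 to 21, 1 to 1, 13 to 14 and 7 to 10 for the next counts, 23 to 25 raised ISG probes and 0 lowered. The other alternatives kept every count within 1.5 times, and each of the 4 named probes kept its direction and its call in 16 alternatives. Same-numbered arrays of the 2 groups deviated together with correlations of 0.22, -0.02 and 0.19, so the numbers were not read as pairs. A replicate block left 138 raised and 8 lowered probes, and not every array correlated best with its own number. Probes near the background limit the smallest rise that can be seen, since 18229 of the 47231 were detected in at least 3 arrays.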
